A study of Mus musculus with 12 samples.

Results

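Transcripts of 9 genes that carry the insulin signal to glucose uptake and glucose use were followed through 12 RNA-seq libraries of 3 mouse tissues, namely gastrocnemius muscle, liver and the white adipose tissue (WAT) around the gonads. The genes were Insr, Irs1, Irs2, Pik3r1, Akt2, Slc2a4, Slc2a2, Hk2 and Pdk4, taken by symbol, and all 9 of 9 were found among the 22276 gene symbols of the series. The mice were male C57BL/6J carrying a floxed glucocorticoid receptor gene, Nr3c1. GRfl/fl mice had no Cre, and GR-mKO mice carried a Cre driven by the skeletal actin promoter Acta1, which removes exon 3 of Nr3c1 in myofibers and leaves the gene intact in other cells. From 8 weeks of age, vehicle groups drank water with 1% ethanol, and CORT groups drank the same for 4 weeks with 100 µg/mL of corticosterone, the chief rodent glucocorticoid. Each of the 12 groups (3 tissues, 2 genotypes, 2 treatments) was 1 library made from the pooled RNA of 3 mice. No group therefore had a replicate, no difference could be tested, and the spread between mice or pools is unknown.

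Insulin binds its receptor, encoded by Insr, a tyrosine kinase that phosphorylates the docking proteins Irs1 and Irs2. These recruit phosphoinositide 3-kinase through its regulatory subunit, the product of Pik3r1, and the lipid made by the kinase brings AKT2 to the membrane. In muscle and fat AKT2 releases vesicles that carry GLUT4, the product of Slc2a4, to the cell surface, whereas hepatocytes use GLUT2, the product of Slc2a2. Hexokinase 2, from Hk2, traps glucose in the cell, and pyruvate dehydrogenase kinase 4, from Pdk4, stops pyruvate from entering oxidation. Glucocorticoids are known to oppose insulin action in muscle, and Pik3r1 and Pdk4 are known glucocorticoid-responsive genes there.

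Each library held 19394572 to 20940660 expected counts, and levels are given as counts-per-million (CPM) of the library total. The floor, set at 3 counts, was 0.143 to 0.155 CPM. Intervals are 95% binomial intervals, Wilson for a level and exact (Clopper-Pearson) for a ratio of 2 libraries. They cover counting error only, not the spread between mice. Log2 changes were taken after adding 0.5 CPM to each side, which understates changes of low genes, while the interval beside each is of the plain ratio on the log2 scale. Nr3c1 itself stood at 113 and 90.4 CPM in GRfl/fl gastrocnemius under vehicle and CORT and at 46.4 and 35.5 CPM in GR-mKO gastrocnemius. This value covers the whole transcript, of which the deletion takes 1 exon. Nr3c1 was 45.2 to 60.9 CPM in liver and 111 to 158 CPM in gonadal WAT. Myofiber, hepatocyte and adipocyte transcripts were highest in gastrocnemius, liver and gonadal WAT, respectively, and the libraries matched their labelled tissues.

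The bases before the start sites of Pik3r1, Irs2 and Pdk4 are shown, since these were the genes that stood past 2-fold with CORT in GRfl/fl gastrocnemius. The sequences are from RefSeq (GRCm38.p6), on the minus strand and written 5′ to 3′ toward the start, from chr13:101768218-101768467 for Pik3r1 (250 bases before its long form), chr8:11008930-11009179 for Irs2 (250 bases) and chr6:5496310-5496528 for Pdk4 (219 bases). Starts were those of RefSeq, and the Pdk4 bases were cut at the start of its transcript in the GENCODE annotation, which lies further upstream. The Irs2 transcript starts at 11008458 in GENCODE, so the Irs2 bases do not adjoin that start. Capitals mark matches to the motifs searched.
Pik3r1: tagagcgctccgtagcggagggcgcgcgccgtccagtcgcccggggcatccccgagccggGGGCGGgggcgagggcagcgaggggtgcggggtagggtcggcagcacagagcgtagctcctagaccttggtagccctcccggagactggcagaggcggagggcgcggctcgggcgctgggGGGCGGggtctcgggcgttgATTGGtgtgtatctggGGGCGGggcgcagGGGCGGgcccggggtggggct
Irs2: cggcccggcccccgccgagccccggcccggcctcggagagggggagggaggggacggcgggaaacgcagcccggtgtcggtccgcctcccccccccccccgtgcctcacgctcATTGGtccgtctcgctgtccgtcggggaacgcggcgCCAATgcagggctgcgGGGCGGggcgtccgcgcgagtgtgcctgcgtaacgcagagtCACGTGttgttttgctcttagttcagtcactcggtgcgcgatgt
Pdk4: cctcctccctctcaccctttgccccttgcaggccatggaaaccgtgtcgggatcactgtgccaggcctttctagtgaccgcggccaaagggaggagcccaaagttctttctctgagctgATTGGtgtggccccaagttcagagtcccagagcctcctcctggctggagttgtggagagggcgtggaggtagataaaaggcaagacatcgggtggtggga

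Both strands of the 250 bases upstream of each start were searched for 5 motifs, none of which contains another. The letters were AGAACA for 1 arm of the glucocorticoid response element, GTAAACA for the forkhead core, CACGTG for the E-box, GGGCGG for the GC box and CCAAT for the CCAAT box. Of 32851 upstream windows in the RefSeq set, 16.1% held the single arm, 3.17% the forkhead core, 6.02% the E-box, 32.7% the GC box and 33.8% the CCAAT box. The Pik3r1 window held 4 GC boxes and 1 CCAAT box. The Irs2 window held 1 E-box, 1 GC box and 2 CCAAT boxes, and the Pdk4 window 1 CCAAT box. Neither the response element arm nor the forkhead core was matched in any of the 11 windows available for 7 of the genes, which says only that these letters are not in those windows.

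The levels of the 9 genes differed by tissue, here averaged over vehicle and CORT libraries together. The same labelled transcript stood for each gene in the 3 tissues, so levels were compared between genes per kilobase of that transcript. If an entry is a sum over the gene, this length is only approximate for genes with several coding transcripts, such as Akt2, Slc2a4 and Pik3r1. On this scale (mean CPM per kb over the 4 libraries of a tissue), Slc2a4 led in gastrocnemius at 243, followed by Pdk4 at 183.5, Akt2 at 54.9 and Hk2 at 42.3. Under vehicle Slc2a4 was above Pdk4 in both genotypes (289 against 116.5 in GRfl/fl, 251 against 61.4 in GR-mKO). Under CORT Pdk4 was above Slc2a4 in both (277.6 against 223.5 in GRfl/fl, 278.4 against 209 in GR-mKO). The signaling genes Irs2, Pik3r1, Insr and Irs1 followed at 15.9, 10.9, 7.44 and 4.70, and Slc2a2 was lowest at 0.0497. The Pik3r1 mean rests on the GRfl/fl CORT library, at 31.35. In every other muscle library Pik3r1 was at 3.09 to 4.56 and below Insr. In liver the order was headed by Slc2a2 at 55.8 CPM per kb, ahead of Akt2 at 22.5, Insr at 7.20 and Pik3r1 at 6.56, with the other 5 genes at 0.0658 to 1.79. Gonadal WAT had Slc2a4 at 111 and Akt2 at 110 CPM per kb, Pik3r1 at 36.6, Hk2 at 20.1, Pdk4 at 17.6, Irs2 at 12.85 and Insr at 11.5, and Irs1 and Slc2a2 were lowest at 2.40 and 0.185. The ranges of Slc2a4 and Akt2 over the WAT libraries overlapped, so their order there was not resolved.

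**Figure D1:**
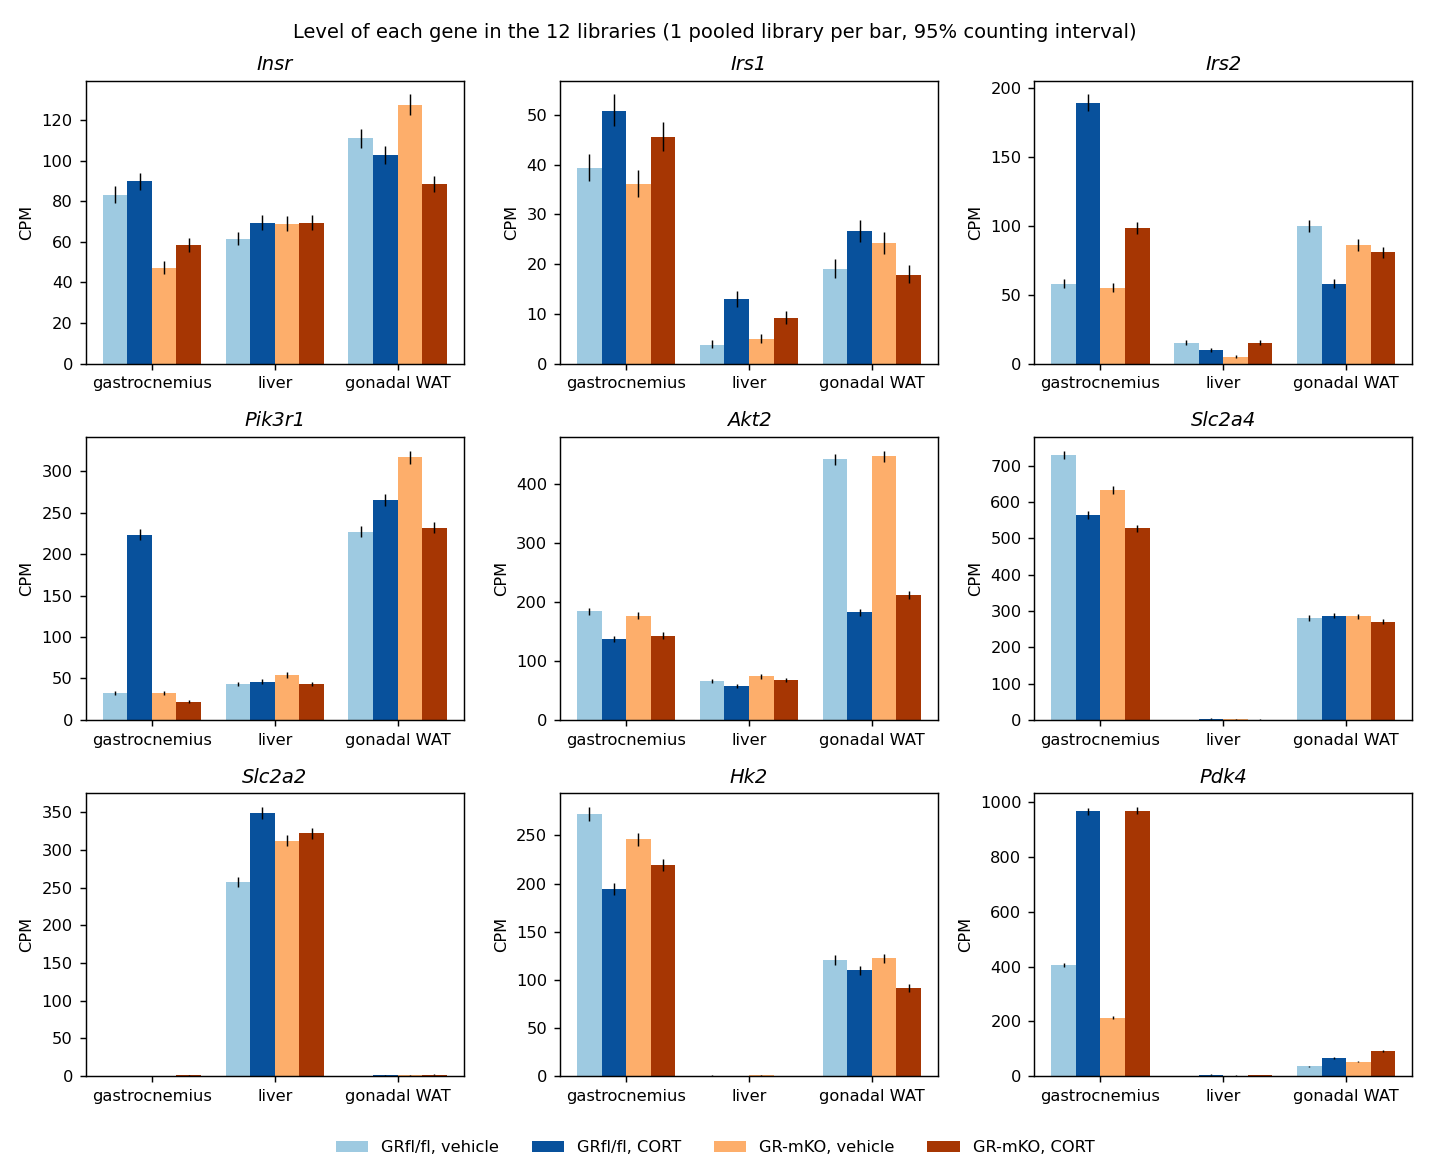
Level in CPM of each of the 9 genes (1 panel each, linear axes that start at 0 and differ between panels) in the 3 tissues, with 1 bar for each pooled library and 95% Wilson counting intervals. Pik3r1 in gastrocnemius stood at 223 CPM in the GRfl/fl CORT library and at 21.95 to 32.5 CPM in the other 3, and Akt2 in gonadal WAT was lower in both CORT libraries.

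A gene was counted as past the fold when its log2 change was at least 1 in either direction, among genes with a mean of at least 1 CPM in the tissue. Of the 9 genes, 8 met that mean in gastrocnemius (all but Slc2a2), 8 in liver (all but Hk2) and 9 in gonadal WAT. The 4 comparisons of a tissue share libraries, so their results are not independent of each other. With CORT in GRfl/fl gastrocnemius, 3 genes (Pik3r1, Irs2 and Pdk4) were past the fold, all higher, against 10.1% of all genes. With CORT in GR-mKO gastrocnemius 1 gene (Pdk4, higher) was past the fold, against 8.22% of all genes. Between genotypes in gastrocnemius, no gene of the 9 was past the fold under vehicle (9.7% of all genes) and 1, Pik3r1, was lower in GR-mKO under CORT (11.5%). Which genes these were can be read from the plots of changes with CORT and between genotypes.

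In liver, 3 genes (Irs1, Pdk4 and Slc2a4) were past the fold with CORT in GRfl/fl mice, all higher, where 13.8% of all genes were, and 1 (Irs2, higher) with CORT in GR-mKO mice, where 7.72% were. In the liver of GR-mKO against GRfl/fl mice, Irs2 was lower and Slc2a4 higher under vehicle (2 genes, against 4.21% of all genes), and Slc2a4 was lower under CORT (1 gene, against 6.65%). In gonadal WAT, only Akt2 was past the fold with CORT, lower in GRfl/fl (1 gene, against 15.4% of all genes) and lower in GR-mKO (1 gene, against 10.7%). No gene of the 9 was past the fold between genotypes in gonadal WAT, under vehicle (3.5% of all genes) or CORT (4.12%). Read against these shares, the 3 of 8 genes in GRfl/fl gastrocnemius with CORT lay above the background, and the counts of 1 gene other than Slc2a4 lay close to it. The genes were chosen with earlier results of these data known, so this comparison is a description and not independent support. The 3 of 8 in GRfl/fl liver include Slc2a4 at a few reads. The 2 of 8 between genotypes in liver under vehicle were Irs2 and again Slc2a4, the latter at 0.239 and 1.16 CPM. With a pseudocount of 1 CPM only Irs2 was past the fold there. Slc2a4 passed the mean of 1 CPM in liver only through the GRfl/fl CORT library. No liver count that includes it is therefore read against the background.

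**Figure D2:**
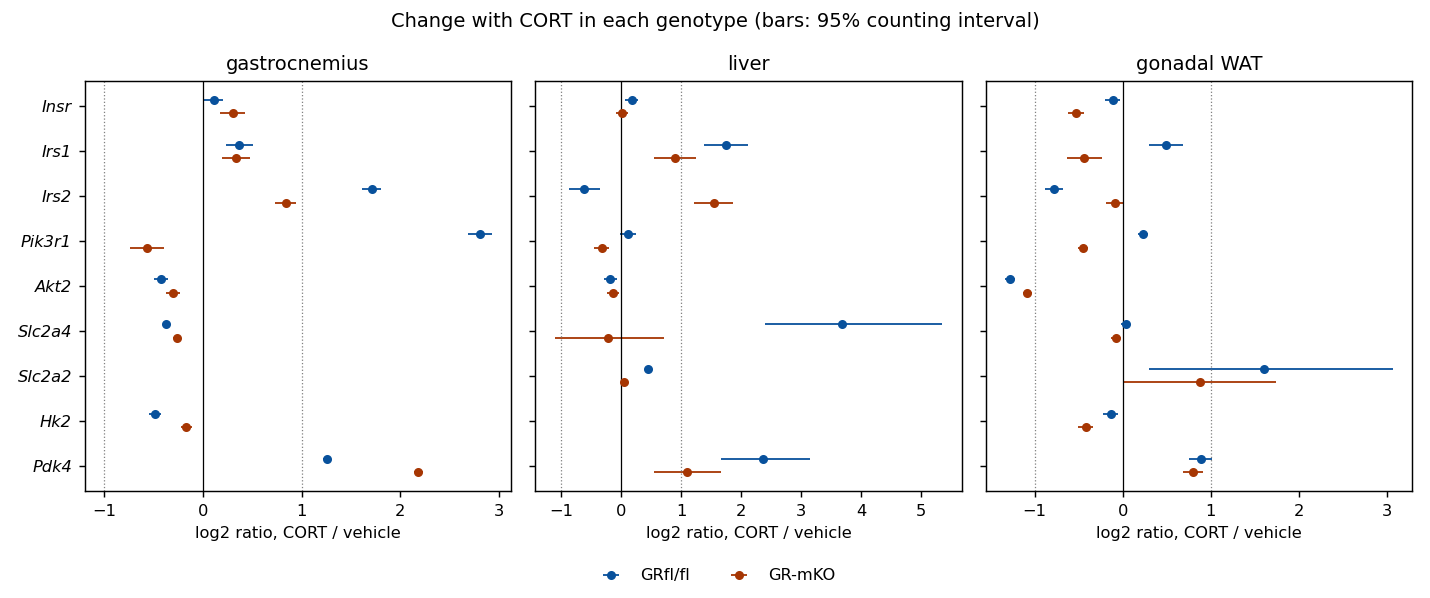
Log2 ratio of CORT to vehicle for each gene with a mean of at least 1 CPM (points) in the 3 tissues, in GRfl/fl (blue) and GR-mKO (brown) mice, with 95% exact counting intervals. Dotted lines mark 2-fold and the axes differ between panels. Pik3r1 and Irs2 lay to the right of their GR-mKO points in gastrocnemius, Pdk4 lay to the left, and Irs2 in liver lay on opposite sides of 0.

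Insr, the receptor (chr8:3122061-3279617, GRCm38), differed by genotype in gastrocnemius more than by treatment. It stood at 83.1 and 89.8 CPM in GRfl/fl muscle under vehicle and CORT and at 47.3 and 58.3 CPM in GR-mKO muscle. Both GR-mKO libraries were below both GRfl/fl libraries. GR-mKO muscle was lower by log2 −0.81 (−0.93 to −0.70) under vehicle and −0.62 (−0.73 to −0.52) under CORT, short of 2-fold in each. In liver Insr lay between 61.5 and 69.5 CPM in the 4 libraries. In gonadal WAT it was 111 and 102.5 CPM in GRfl/fl and 127 and 88.3 CPM in GR-mKO, a CORT change of −0.11 (−0.20 to −0.03) and −0.53 (−0.62 to −0.44). By TMM and by median of ratios alike, these changes were −0.04 in GRfl/fl and −0.40 in GR-mKO. WAT libraries under CORT also had less of the adipocyte list of 10 genes (54920 and 61180 CPM summed, against 73410 and 76030 under vehicle), and in tissue RNA fewer cells of a type and less RNA per cell cannot be told apart.

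Irs1 (chr1:82233101-82291416) was the docking gene with a similar CORT change in both genotypes of muscle. It measured 39.4 CPM under vehicle and 50.8 CPM under CORT in GRfl/fl gastrocnemius, and 36.1 and 45.6 CPM in GR-mKO, log2 changes of 0.36 (0.23 to 0.51) and 0.33 (0.20 to 0.48). Liver held little Irs1, and both CORT libraries were above both vehicle libraries. Hepatic Irs1 was 3.86 CPM under vehicle and 12.9 CPM under CORT with the receptor intact, a change of 1.62 (1.37 to 2.11). Without it in muscle the values were 4.96 and 9.24 CPM, a change of 0.84 (0.54 to 1.25). The difference between these 2 changes was 0.79, with a counting interval of 0.29 to 1.28. In gonadal WAT the 2 genotypes went opposite ways, from 18.96 to 26.6 CPM in GRfl/fl (0.48, 0.29 to 0.68) and from 24.2 to 17.9 CPM in GR-mKO (−0.42, −0.63 to −0.23).

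Irs2 (chr8:10984681-11008458), the docking gene that insulin itself represses in liver, was higher with CORT in gastrocnemius of both genotypes. It went from 57.9 to 189 CPM in GRfl/fl muscle, a log2 change of 1.70 (1.61 to 1.81) that ranked 203 from the top of 12190 genes, and from 55.2 to 98.8 CPM in GR-mKO muscle, a change of 0.83 (0.73 to 0.95). The vehicle libraries were close together and the CORT libraries were not, with GR-mKO lower by −0.93 (−1.02 to −0.86). The GRfl/fl change exceeded the GR-mKO change by 0.87 (0.72 to 1.01 from counting alone).

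The pattern of Irs2 was another in the remaining tissues. Liver levels were 15.15 and 9.85 CPM in GRfl/fl mice under vehicle and CORT and 5.20 and 15.1 CPM in GR-mKO mice. CORT changed it by −0.60 (−0.88 to −0.36) in GRfl/fl liver but by 1.45 (1.21 to 1.86) in GR-mKO liver, and the low value was that of the GR-mKO vehicle library, at −1.46 (−1.87 to −1.22) against GRfl/fl. The liver macrophage list was 168 CPM in that library and 70.4 to 206 CPM in the other 3, and its part in the result was not tested. Both GRfl/fl liver libraries were numbered apart from all other libraries of the series, and whether they were handled apart is not known. In liver, genotype and such a split cannot be told apart. In gonadal WAT Irs2 was 99.8, 58.2, 86.1 and 80.8 CPM in GRfl/fl vehicle, GRfl/fl CORT, GR-mKO vehicle and GR-mKO CORT. It was lower with CORT in GRfl/fl, by −0.77 (−0.88 to −0.67), and the GR-mKO change of −0.09 (−0.19 to 0.01) turned to 0.03 by TMM and 0.04 by median of ratios.

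Pik3r1 (chr13:101680563-101768217), the regulatory subunit of phosphoinositide 3-kinase, showed the largest CORT change of the 9 genes in GRfl/fl muscle. Its entry, labelled with the 16-exon long-form transcript though it may be a sum over the gene, stood at 31.9 CPM under vehicle and 223 CPM under CORT in GRfl/fl gastrocnemius and at 32.5 and 21.95 CPM in GR-mKO gastrocnemius. A single library, GRfl/fl with CORT, was high, and the other 3 lay within 21.95 to 32.5 CPM. The change was 2.78 (2.68 to 2.93), 6.98-fold, in GRfl/fl, which ranked 80 from the top of 12190 genes, and −0.55 (−0.74 to −0.39) in GR-mKO. Under vehicle the genotypes differed by 0.02 (−0.13 to 0.19), and under CORT GR-mKO was lower by −3.32 (−3.49 to −3.20), which ranked 51 from the lowest of the 12190. The difference between the 2 CORT changes was 3.34 (3.13 to 3.55 from counting alone).

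Pik3r1 was higher in gonadal WAT than in the other tissues, and the adipocyte genes Adipoq, Plin1 and Lep were highest in the same muscle library, while the adipocyte list as a whole was not. Pik3r1 in GRfl/fl CORT muscle was 85.7% of its mean in gonadal WAT, and Adipoq was 1.97%, Plin1 2.14% and Lep 3.47% of theirs. In GR-mKO CORT muscle Pik3r1 was at 8.44%, Adipoq at 1.51%, Plin1 at 1.5% and Lep at 1.16%. The summed list of 10 adipocyte genes was lowest in the GRfl/fl CORT muscle library, at 2959 CPM or 4.46% of its WAT mean, against 3678 to 5900 CPM or 5.54% to 8.89% in the other 3. In GRfl/fl muscle under vehicle and CORT, Adipoq was 14.6 and 63.0 CPM, Plin1 13.55 and 42.5 CPM and Lep 2.01 and 93.65 CPM. In GR-mKO muscle they were 16.8 and 48.2, 14.5 and 29.7, and 3.35 and 31.35 CPM. The summed list does not follow adipocytes alone. In GRfl/fl vehicle liver it was 3168 CPM with Adipoq, Lep, Cidec, Retn and Pnpla3 at 0. The part of adipocyte RNA in the Pik3r1 values was not tested.

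**Figure D3:**
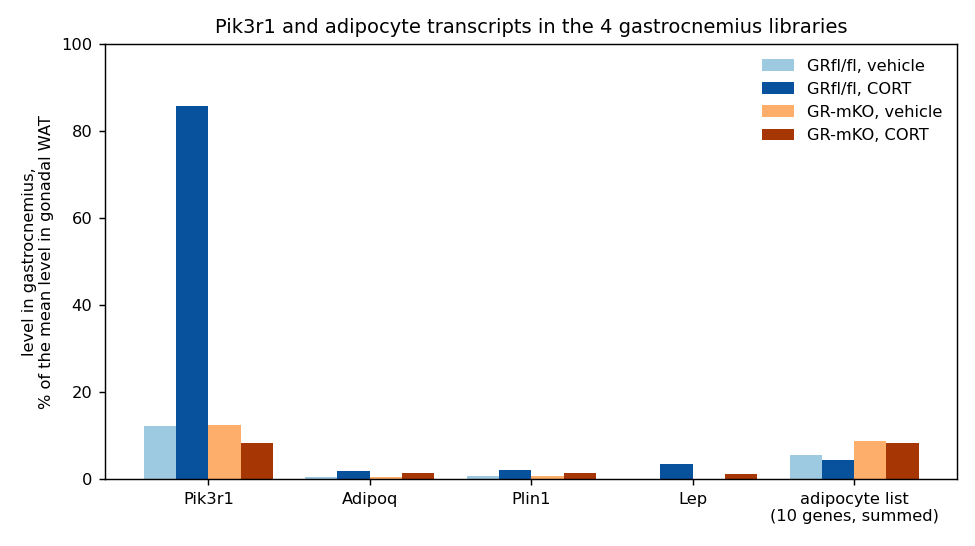
Level of Pik3r1, of the adipocyte genes Adipoq, Plin1 and Lep and of the summed adipocyte list in the 4 gastrocnemius libraries, as a percent of the mean level in gonadal WAT (1 bar for each pooled library, no error drawn). Pik3r1 reached 85.7% in the GRfl/fl CORT library, where the adipocyte items were at 1.97% to 4.46%. In the GRfl/fl vehicle library Adipoq, Plin1 and Lep were at 0.457%, 0.682% and 0.0745%.

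Outside muscle, Pik3r1 moved less. Liver levels were 43.0, 46.3, 54.2 and 43.1 CPM in GRfl/fl vehicle, GRfl/fl CORT, GR-mKO vehicle and GR-mKO CORT. Gonadal WAT held 227, 265, 317 and 232 CPM in the same order, a CORT change in GRfl/fl of 0.23 (0.17 to 0.28) and in GR-mKO of −0.45 (−0.51 to −0.40). No change of Pik3r1 in these 2 tissues reached 2-fold.

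Akt2 (chr7:27591552-27640826), the AKT kinase of insulin-responsive tissues, was the only one of the 9 genes past the fold in gonadal WAT. It stood at 442 CPM under vehicle and 182 CPM under CORT in GRfl/fl WAT and at 447 and 212 CPM in GR-mKO WAT. The 2 CORT libraries lay far below the 2 vehicle libraries, and the genotypes were close within each treatment. The changes were −1.27 (−1.33 to −1.22) and −1.08 (−1.13 to −1.03), and ranked 750 and 710 from the lowest of 12817 genes. The second fell short of 2-fold under 2 other scalings between libraries. In the same CORT libraries the macrophage list was higher (2365 and 2318 CPM summed, against 1038 and 1277 under vehicle) and the endothelial list lower (231 and 311 CPM, against 623 and 577), and their part in the result was not tested. In gastrocnemius Akt2 was 184 and 138 CPM in GRfl/fl and 177 and 143 CPM in GR-mKO, changes of −0.42 (−0.49 to −0.35) and −0.30 (−0.38 to −0.23), the second −0.15 by TMM and −0.16 by median of ratios. In liver it was 57.4 to 73.7 CPM.

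Slc2a4 (chr11:69942539-69948188), which encodes GLUT4, was lower with CORT in muscle of both genotypes, by less than 2-fold. Gastrocnemius levels were 730 and 564 CPM in GRfl/fl and 632 and 527.4 CPM in GR-mKO, changes of −0.37 (−0.41 to −0.34) and −0.26 (−0.30 to −0.22). The GR-mKO change was smaller under other scalings, −0.11 by TMM and −0.12 by median of ratios. In gonadal WAT the 4 libraries lay between 271 and 288 CPM, the narrowest relative range of the 9 genes in that tissue, and the CORT changes were 0.03 (−0.02 to 0.09) and −0.08 (−0.13 to −0.02), the second turning to 0.05 under either other scaling. Liver, which normally relies on GLUT2, held 0.239, 3.08, 1.16 and 1.00 CPM of Slc2a4 in GRfl/fl vehicle, GRfl/fl CORT, GR-mKO vehicle and GR-mKO CORT. The gene passed the mean of 1 CPM there only through the GRfl/fl CORT library, so its counts past the fold in liver rest on very few reads. The CORT change in GRfl/fl liver was 2.27 on the log2(CPM + 0.5) scale, and the plain ratio had an interval of 2.39 to 5.36. Adipoq was at 0 to 0.193 CPM and Ckm at 0 to 0.678 CPM in the liver libraries.

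Slc2a2 (chr3:28697903-28731359), which encodes GLUT2, was a liver transcript at 258 and 349 CPM in GRfl/fl liver and 313 and 322 CPM in GR-mKO liver under vehicle and CORT. The GRfl/fl vehicle library was the lowest. The CORT change in GRfl/fl was 0.44 (0.39 to 0.49) and in GR-mKO 0.04 (−0.01 to 0.09; −0.02 under either other scaling), and GR-mKO liver under vehicle was higher by 0.28 (0.23 to 0.33). In gastrocnemius Slc2a2 was listed at 0 in both GRfl/fl libraries and at 0.201 and 0.905 CPM in the GR-mKO libraries under vehicle and CORT, at least 5.85-fold higher in the last than the floor of the GRfl/fl CORT library. That level was 0.292% of the liver mean, and the hepatocyte list of 12 genes in the same library was 0.293% of its liver mean. Alb was 198 CPM there, against 4.13 to 56.4 CPM in the other 3 muscle libraries. In gonadal WAT Slc2a2 was 0.351 to 1.76 CPM.

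**Figure D4:**
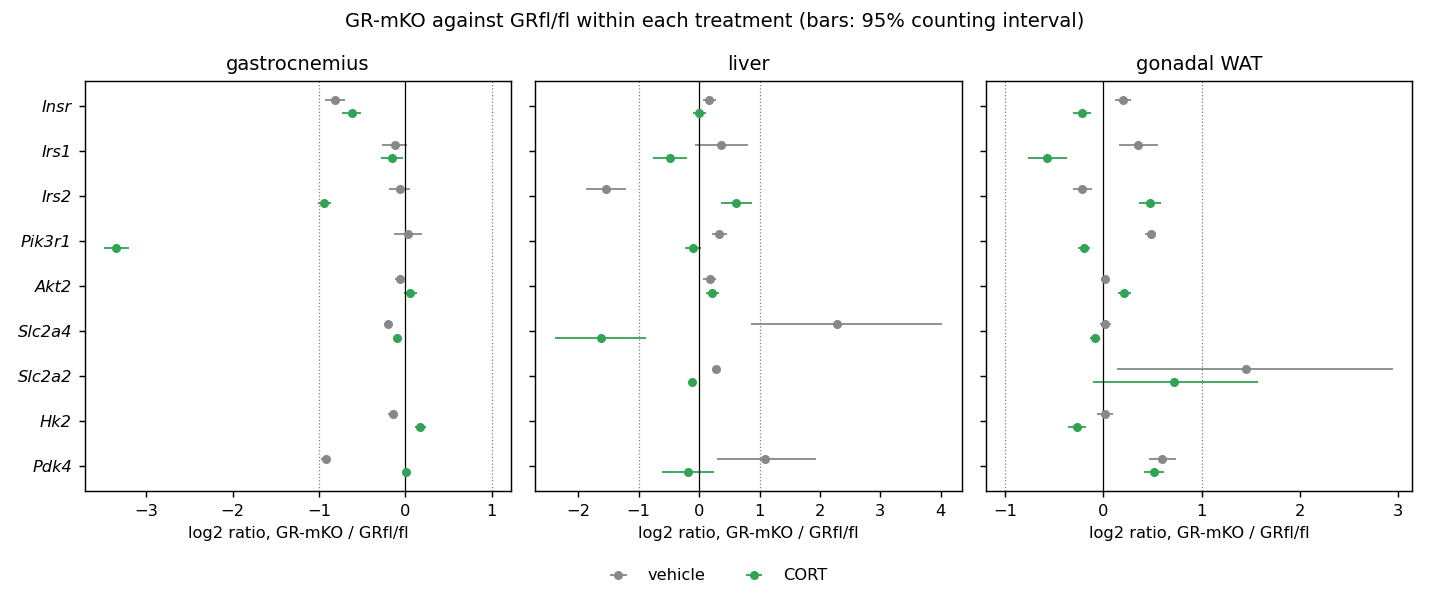
Log2 ratio of GR-mKO to GRfl/fl for each gene with a mean of at least 1 CPM (points) in the 3 tissues, under vehicle (gray) and CORT (green), with 95% exact counting intervals. Dotted lines mark 2-fold and the axes differ between panels. Pik3r1 in gastrocnemius lay at 0.02 under vehicle and −3.32 under CORT, and Insr lay below 0 under both.

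Hk2 (chr6:82725025-82774454), the hexokinase of insulin-responsive tissues, was lower with CORT in GRfl/fl muscle. It stood at 272 and 195 CPM in GRfl/fl gastrocnemius and 246 and 219 CPM in GR-mKO, changes of −0.48 (−0.54 to −0.42) and −0.17 (−0.22 to −0.11). The GR-mKO change was −0.01 under TMM scaling and −0.02 under median-of-ratios scaling, so no direction is read from it. Gonadal WAT held 121 and 110 CPM in GRfl/fl and 122 and 91.4 CPM in GR-mKO, changes of −0.13 (−0.22 to −0.05) and −0.42 (−0.51 to −0.33). Under either other scaling these changes were smaller, at −0.06 in GRfl/fl and −0.29 in GR-mKO. In liver it was 0.096 to 0.777 CPM, near the floor, and no change is read from it.

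Pdk4 (chr6:5483351-5496309), the brake on pyruvate oxidation, was higher with CORT in muscle of both genotypes and reached the same level. It went from 406 to 967 CPM in GRfl/fl gastrocnemius, a change of 1.25 (1.22 to 1.29), and from 214 to 970 CPM in GR-mKO, a change of 2.18 (2.13 to 2.23). The CORT libraries differed by 0.00 (−0.02 to 0.03), whereas the GR-mKO vehicle library was lower than the GRfl/fl vehicle library by −0.92 (−0.98 to −0.87). The larger change in GR-mKO muscle thus came with the lower starting level. The GR-mKO vehicle muscle library also had the lowest myofiber list (109000 CPM summed, against 134700 to 149300) and the highest macrophage list (513 CPM, against 156 to 202.5), and their part in these results and in those for Insr was not tested.

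Pdk4 was also higher with CORT in the other 2 tissues. In gonadal WAT it was 35.1 and 64.8 CPM in GRfl/fl and 53.2 and 92.5 CPM in GR-mKO, changes of 0.87 (0.75 to 1.02) and 0.79 (0.69 to 0.91). GR-mKO WAT was higher than GRfl/fl under both treatments, by 0.59 (0.46 to 0.74) and 0.51 (0.41 to 0.62). Liver levels were low, at 0.956 and 4.93 CPM in GRfl/fl and 2.04 and 4.34 CPM in GR-mKO, changes of 1.90 (plain ratio 1.67 to 3.14) and 0.93 (0.55 to 1.66). In each tissue and genotype the CORT library was above its vehicle library.

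Of 80 further genes of the pathway, set in 4 groups (docking and upstream, PI3K to AKT and downstream, transporters and GLUT4 vesicle traffic, hexokinases and pyruvate entry), 75 met the mean of 1 CPM for gastrocnemius, 69 for liver and 78 for gonadal WAT. With CORT in GRfl/fl gastrocnemius 10 of 75 were past the fold (4 higher, 6 lower, against 10.1% of all genes), with a median log2 change of −0.06 against −0.09 for all genes. In GR-mKO gastrocnemius 5 of 75 were (1 higher, 4 lower, against 8.22%), with a median of −0.00 against −0.09. Between genotypes 9 of 75 were past the fold under vehicle (2 higher in GR-mKO, 7 lower, against 9.7%), with a median of −0.19 against 0.08, and 15 of 75 under CORT (8 higher, 7 lower, against 11.5%), with a median of −0.13 against 0.04. The liver counts with CORT were 8 of 69 in GRfl/fl (2 higher, 6 lower, against 13.8%) and 4 of 69 in GR-mKO (2 higher, 2 lower, against 7.72%), with medians of 0.05 and 0.06 against 0.01 and 0.06. Those of gonadal WAT were 10 of 78 (5 higher, 5 lower, against 15.4%) and 6 of 78 (3 higher, 3 lower, against 10.7%), with medians of 0.05 and −0.10 against −0.06 and −0.13. Between genotypes in liver, 2 of 69 were higher in GR-mKO and 1 lower under vehicle (against 4.21% of all genes past the fold). Under CORT 1 of 69 was higher and 0 lower (against 6.65%). In gonadal WAT 2 of 78 were higher and 0 lower under vehicle (against 3.5%), and 2 higher and 1 lower under CORT (against 4.12%). The list as a whole was therefore near or below the share of all genes in liver and gonadal WAT.

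Socs3, a feedback inhibitor of cytokine and insulin signaling, was highest in GR-mKO muscle, at 15.3, 12.8, 33.9 and 64.9 CPM in gastrocnemius of GRfl/fl vehicle, GRfl/fl CORT, GR-mKO vehicle and GR-mKO CORT, a genotype difference under CORT of 2.30 (2.15 to 2.55). Pik3cd, a catalytic subunit that pairs with the Pik3r1 product, and Mlst8, a subunit of both mTOR complexes, were listed at 0 in the GRfl/fl CORT muscle library. In the other muscle libraries Pik3cd was 3.74 to 18.8 CPM and Mlst8 8.87 to 12.1 CPM. With the floor in place of 0, the GRfl/fl CORT library was at least 122-fold below GRfl/fl vehicle for Pik3cd and at least 78.3-fold for Mlst8. These bounds rest on values of 0, which need the care set out below.

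In liver Sort1, which sorts GLUT4 vesicles in fat and muscle, was 17.6 and 1.22 CPM in GRfl/fl (−3.40, −4.50 to −3.27) and 14.2 and 1.77 CPM in GR-mKO. Trib3, an inhibitor of AKT, was 8.17 and 2.83 CPM in GRfl/fl (−1.38, −1.98 to −1.09) and 8.38 and 3.89 CPM in GR-mKO. Tsc1, a brake on mTOR, and Grb10, an adaptor that inhibits the insulin receptor, were listed at 0 in the GRfl/fl vehicle liver alone and otherwise at 9.03 to 11.02 and 1.08 to 1.964 CPM. Hk1 was listed at 0 in the GRfl/fl CORT liver and otherwise at 1.93 to 3.59 CPM. In gonadal WAT Slc2a12, a glucose transporter, was 11.5 and 2.77 CPM in GRfl/fl (−1.88, −2.51 to −1.63) and 10.03 and 3.00 CPM in GR-mKO. Hk3, a hexokinase of leukocytes, was 4.26 and 15.3 CPM (1.73, 1.49 to 2.21) and 4.09 and 10.9 CPM, in the libraries with the higher macrophage list. Phlpp2, a phosphatase of AKT, was 17.0 and 17.1 CPM under vehicle and listed at 0 in both CORT libraries. Pik3cd was 0.783 CPM in GRfl/fl CORT WAT and 7.99 to 10.3 CPM in the other 3.

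Values of 0 need care in these files, because every entry is labelled with 1 transcript, and whether its value is a sum over the gene was not settled. Among entries that reached 5 CPM in a tissue, 0.138% to 0.337% of those from genes with 1 coding transcript were listed at 0 in some library of that tissue, against 1.87% to 2.67% of those from genes with 2 or more. Irs1, Irs2 and Slc2a2 have 1 coding transcript in the annotation, Insr and Pdk4 have 2, Hk2 has 3, Pik3r1 has 4, Slc2a4 has 5 and Akt2 has 11. A change of Akt2 or Pik3r1 can therefore be one of the retained transcript and not of the whole gene.

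The genes whose pattern was most like a member were ranked for Irs1, Irs2, Hk2 and Pdk4 by Pearson correlation of log2(CPM + 0.5) over the 12 libraries, centered on each tissue, among 6134 genes. The libraries share tissue, treatment and genotype, so the values are a description. For Irs1 the highest were Olfr472 at 0.95, Ywhag at 0.94, Bag3 at 0.93, Acacb at 0.93 and Hsp90ab1 at 0.93. For Irs2 they were Wsb1 at 0.88, Ptcd1 at 0.88, Mocs1 at 0.85, Klhl7 at 0.84 and Serpina3c at 0.83. Hk2 had Dap3 at 0.87, Iars2 at 0.86, Fam20b at 0.85 and Cpq at 0.83, and Pdk4 had Nek7 at 0.93, Eed at 0.91, Cdo1 at 0.90, Hspa1a at 0.89 and Rabgef1 at 0.89.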

How the data were processed

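Total RNA of 3 mice of a group was pooled by the authors and sequenced as paired reads, 1 library for each of 12 groups. The authors quantified reads with Salmon 1.2.1 on the GENCODE protein-coding transcripts of GRCm38 and imported them into R 3.5.0 with tximport on its length-scaled scale, so the deposited values are expected counts with no scaling between libraries. Of entries that shared a gene symbol the authors kept the one with the largest total, which can drop reads of other entries of that gene. The study's own NOISeq calls rest on simulated technical samples and were not used here.

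CPM were computed from library totals in Python 3.11.15 (numpy 2.4.6, pandas 2.3.3, scipy 1.17.1, matplotlib 3.10.9), with counts rounded to whole numbers for intervals. With 1 library per group no p-value was computed, and groups were compared by log2(CPM + 0.5), counting intervals and a 2-fold threshold, over every gene whose tissue mean reached 1 CPM. This arithmetic was tested on simulated data. Alternatives were TMM factors (edgeR 4.0.16) and median-of-ratios factors (DESeq2 1.42.0, R 4.3.3), pseudocounts of 0.1 and 1 CPM, a fold of 1.5, no filter on low values, and the study's filter (every library of the tissue above 0). Positions came from GENCODE (GRCm38) and sequences from RefSeq. All 9 genes and Nr3c1 are named. Of the pathway list, up to 3 higher and 3 lower genes per tissue are named, those with the largest log2 change past 2-fold in any comparison. Likeness was ranked among genes with a mean of at least 5 CPM in each tissue and the same transcript in all 3. The genes and lists were chosen with earlier results of these data known. A few genes that these rules select are not reported here.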

Additional observations from a re-analysis of the deposited data

Results flagged for a closer look

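For 3 genes the change with CORT had opposite signs in GRfl/fl and GR-mKO mice of a tissue, with both counting intervals off 0 and both changes at least 0.3 on the log2 scale. Each genotype and treatment is 1 pooled library, so the differences were not tested. Pik3r1 in gastrocnemius changed by 2.78 in GRfl/fl and −0.55 in GR-mKO, a difference of 3.34. Irs2 in liver changed by −0.60 in GRfl/fl and 1.45 in GR-mKO, a difference of −2.05. Irs1 in gonadal WAT changed by 0.48 in GRfl/fl and −0.42 in GR-mKO, a difference of 0.90.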

How the results depend on the processing

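Across 84 alternative counts of genes past the fold, 65 stayed within 1.5 times the count reported and 19 did not. With a fold of 1.5, the count became 2 with CORT in GR-mKO gastrocnemius, 2 between genotypes in gastrocnemius under vehicle (Insr and Pdk4) and 3 under CORT, 3 with CORT in GR-mKO liver, 2 between genotypes in liver under CORT, and in gonadal WAT 4 and 3 with CORT in GRfl/fl and GR-mKO and 2 between genotypes under vehicle. With no filter on low values it became 2 with CORT in GR-mKO gastrocnemius, 2 between genotypes in gastrocnemius under CORT and 2 with CORT in GR-mKO liver, where the filter for genes above 0 in all 4 libraries also gave 2. A pseudocount of 0.1 CPM gave 2 with CORT in GR-mKO liver, 2 with CORT in GRfl/fl gonadal WAT and 1 between genotypes in gonadal WAT under vehicle, and a pseudocount of 1 CPM gave 1 between genotypes in liver under vehicle. TMM scaling gave 1 between genotypes in gastrocnemius under vehicle (Pdk4), and TMM and median-of-ratios scaling each gave 0 with CORT in GR-mKO gonadal WAT, where Akt2 fell short of 2-fold. No cause was tested beyond these settings.

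Single changes under the alternatives were set against the width of their counting interval. Of these, 377 moved by at most 50% of that width or had an interval without a finite width, and 55 moved more. Of 108 changes, 8 turned sign under another scaling, all of them at most 0.09 in size as reported, and of 60 changes of at least 0.3 on the log2 scale 0 turned sign. The median over all genes moved by more than 0.1 (log2) under another scaling with CORT in gastrocnemius (GRfl/fl −0.09 to 0.02 by median of ratios, GR-mKO −0.09 to 0.05 by TMM) and in GR-mKO gonadal WAT (−0.13 to −0.01 by TMM). Genes past the fold with CORT in GR-mKO gastrocnemius were 27.3% higher ones by library totals and 37.4% by TMM, and in GR-mKO gonadal WAT 39.0% and 50.1%. No paired analysis was possible because each group has 1 library, and for the same reason no replicate could be left out. Depth limits Slc2a2 in gastrocnemius and WAT, and Hk2, Slc2a4 and Pdk4 in liver.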

Other observations

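Other genes of the pathway list stood out in gastrocnemius and were chosen here after their values were seen. Values are in the order GRfl/fl vehicle, GRfl/fl CORT, GR-mKO vehicle and GR-mKO CORT. Slc2a3, a glucose transporter of neurons and leukocytes, was 8.19, 32.0, 1.75 and 2.17 CPM. Tbc1d1, a regulator of GLUT4 vesicle release in muscle, was 29.7, 87.0, 25.1 and 25.0 CPM. Foxo1, a transcription factor that AKT excludes from the nucleus, was 87.8, 147.5, 37.0 and 33.4 CPM. In each of these 3 genes the GRfl/fl CORT library was the highest of the 4.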
